A study of Mus musculus with 2 samples.

Results

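Wnt signalling is known to switch on a set of genes in the hepatocytes around the central vein. Of these, 10 were followed in mouse liver: Glul, Lgr5, Axin2, Rnf43, Znrf3, Nkd1, Tbx3, Notum, Sp5 and Rhbg. They were chosen by name, and all 10 were among the 19073 features of both count matrices. The cells came from heterozygous male p16-Tom mice on a C57BL/6 background, which carry p16-CreERT2 and the R26-CAG-LSL-tdTomato-WPRE reporter. All mice had received CCl4 for 4 weeks, and tamoxifen to activate the Cre. Cells positive for Hoechst and MitoBrilliant were sorted by tdTomato into a Tom- and a Tom+ fraction, and each fraction gave 1 library. Both fractions therefore share genotype, injury and tamoxifen, and no untreated liver was analysed here. Cre is driven from the p16Ink4a locus, so Tom+ marks cells in which that locus was transcribed when tamoxifen was present. The number and age of the mice are not given in the sources used here.

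Since each fraction is a single library, no test between them can be made. All intervals below are 95% intervals that cover counting error only, and a difference between Tom+ and Tom- is a difference between these libraries.

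Canonical Wnt signalling acts through β-catenin, which is degraded in the cytoplasm until a Wnt ligand binds a Frizzled receptor and its LRP co-receptor. Stabilised β-catenin then works with TCF/LEF transcription factors at target genes. In the liver, endothelial cells of the central vein supply Wnt and R-spondin ligands, and the neighbouring hepatocytes express a programme that includes glutamine synthesis. Several targets are themselves parts of the pathway: some strengthen the response and others limit it.

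After quality filters and removal of clusters with few genes or with immune, stromal or endothelial markers, 10959 Tom- and 10292 Tom+ hepatocytes remained, with median UMI counts of 32463 and 35442.5. The libraries shared 503 barcodes, 143 of them among hepatocytes. Hepatocyte markers were present throughout (Alb between 85037 and 130767 CPM, a gene's UMIs scaled to a common total, in the bins of the Tom- library). The reporter was between 55.7 and 118.7 CPM along the lobule in Tom- cells and between 630.0 and 975.6 CPM in Tom+ cells, without overlap. A cell's place in the lobule was scored from 9 central and 10 portal landmark genes, none of them among the Wnt targets studied. Whether the landmarks themselves respond to Wnt signalling was not tested, so the score may not be independent of the pathway. The score was cut into 10 bins that each hold about 10.0% of Tom- cells, from bin 1 at the portal end to bin 10 at the central end. This placed 10582 Tom- and 9849 Tom+ cells, and the remaining 377 and 443 cells had under 10000 UMIs. Tom+ cells were unevenly placed: 34.1% of them (3362 cells) lay in bin 10 and 18.4% in bin 9, against 3.11% in bin 1.

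All 10 Wnt targets were at their highest in the most central bin, in both libraries. Each was at least 2-fold higher in bin 10 than in bin 1. Over all genes tested, 6.75% passed this limit in the Tom- library and 11.4% in the Tom+ library. The median log2 ratio of bin 10 over bin 1 was 4.98 for the 10 genes in Tom- cells and 4.66 in Tom+ cells, beside 0.16 and 0.22 for all genes. The genes differed from each other in how much of their level lay outside the central bin.

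**Figure D1:**
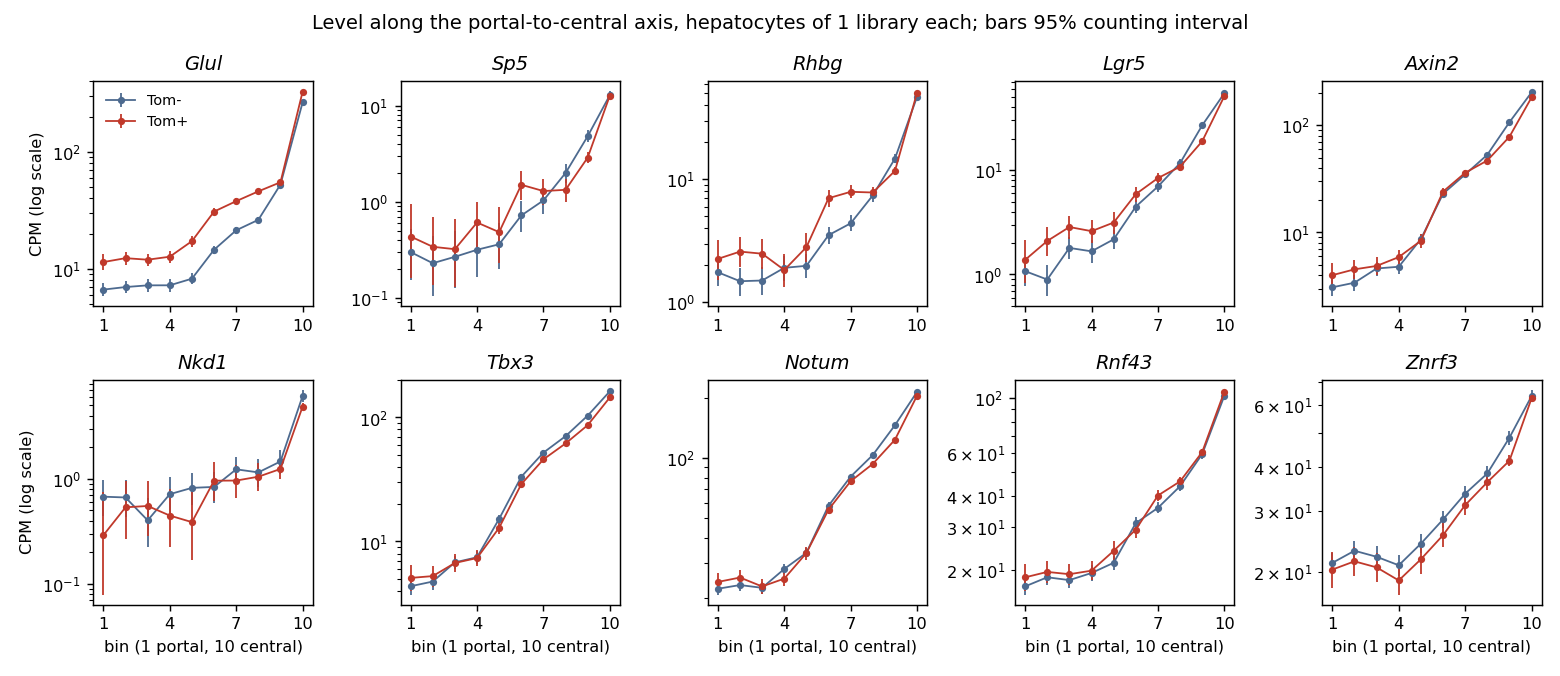
Level of each gene (CPM, log axis) in 10 bins from the portal end (1) to the central end (10) of the lobule, for Tom- (blue) and Tom+ (red) hepatocytes, with 95% counting intervals and genes ordered by their share in the central bin. Each gene is highest in bin 10 in both libraries, Znrf3 changes least, and the Glul lines lie apart from bin 1 to bin 8.

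The receptor of the set is Lgr5 (chr10:115450311-115587780 on mm10, minus strand), which binds R-spondins and so strengthens the Wnt signal. In Tom- cells it was at 1.08 CPM in bin 1, 26.9 CPM in bin 9 and 54.5 CPM in bin 10. In Tom+ cells the corresponding levels were 1.38, 18.9 and 51.1 CPM. The portal levels rest on 43 and 19 UMIs, and the log2 ratio of bin 10 over bin 1 was 5.66 (5.23 to 6.13) in Tom- and 5.21 (4.57 to 5.94) in Tom+ cells. Lgr5 was thus near the limit of detection over the portal bins and was found mostly in the last few bins.

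Rnf43 (chr11:87662722-87735539, plus strand) and Znrf3 (chr11:5276324-5444847, minus strand) encode related membrane ubiquitin ligases that remove Frizzled receptors from the cell surface, and R-spondins bound to Lgr receptors block them. Their profiles were the shallowest of the set. Rnf43 was at 17.2 CPM in bin 1 and 102 CPM in bin 10 in Tom- cells, and at 18.7 and 106 CPM in Tom+ cells. Znrf3 was at 21.3 and 63.7 CPM in Tom- cells and at 20.3 and 62.8 CPM in Tom+ cells, 3.0-fold and 3.09-fold. UMIs of both were counted in every bin. The portal levels were, however, close to those in the cluster richest in the immune marker Ptprc, called immune-rich here. That cluster was at 18.2 CPM for Rnf43 and 20.0 CPM for Znrf3 in the Tom- library. In Tom- cells Rnf43 was at most 21.5 CPM in bins 1 to 5, and Znrf3 was at its lowest in bin 4 (20.9 CPM), not at the portal end.

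Notum (chr11:120653788-120661175, minus strand) is a secreted enzyme that takes the lipid off Wnt proteins and inactivates them. It was at 22.2 CPM in bin 1 and 215 CPM in bin 10 of the Tom- library, and at 24.0 and 206 CPM in the Tom+ library. Its level in bin 9 was already 147 CPM in Tom- and 124 CPM in Tom+ cells, so its signal spread over several bins before the last one.

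Axin2 and Nkd1 are feedback inhibitors inside the cell. Axin2 (chr11:108920349-108950783, plus strand), a scaffold of the complex that degrades β-catenin, had the largest ratio of bin 10 over bin 1 in Tom- cells. It was at 3.08 CPM in bin 1, 22.96 CPM in bin 6, 107 CPM in bin 9 and 203 CPM in bin 10. The Tom+ levels in the same bins were 4.00, 24.0, 78.1 and 182 CPM. Bin 10 over bin 1 was 65.8-fold in Tom- and 45.5-fold in Tom+ cells. Nkd1 (chr8:88521354-88594884, plus strand), which binds Dishevelled, was the least detected member, with 541 UMIs in Tom- and 897 in Tom+ hepatocytes. It stayed between 0.40 and 1.46 CPM from bin 1 to bin 9 in Tom- cells and reached 6.15 CPM in bin 10. In Tom+ cells it was between 0.29 and 1.24 CPM in bins 1 to 9 and 4.86 CPM in bin 10. The last step was 4.2-fold from bin 9 to bin 10 in Tom- and 3.92-fold in Tom+ cells, within ratios of bin 10 over bin 1 of 9.09-fold and 16.7-fold. The bin 1 levels behind these ratios rest on 27 and 4 UMIs.

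Sp5 and Tbx3 encode transcription factors. Sp5 is a zinc finger factor found as a Wnt target in many tissues. Of the 5 genes with a promoter window, it was the only one whose window held the letters searched for. The windows, 250 bases before to 50 after a RefSeq gene start (GRCm38.p6), were available for 5 of the 10 genes (Glul, Sp5, Nkd1, Axin2 and, with 2 starts, Rnf43). They were searched on both strands for ATCAAAG and AACAAAG, core letters bound by TCF/LEF factors. Of 32544 promoter windows, 3.73% held the first, 5.85% the second and 9.33% either. Sp5 (chr2:70474923-70477729, plus strand) held 1 of each. They are shown because they were the only matches: of the 6 windows of these genes, 1 held any. The windows of Glul, Nkd1, Axin2 and Rnf43 held none. The capitals mark the matched letters, and in the second line they are the reverse complement of ATCAAAG. A match is a description and not evidence of binding.
Sp5, 222 bases before the start, chr2:70474690-70474718: ttcctagagatAACAAAGacactttgtca
Sp5, 104 bases before the start, chr2:70474808-70474836: ggcaaggccccCTTTGATcaggaaaatcc

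Sp5 was at 0.30 CPM in bin 1 (12 UMIs), 4.81 CPM in bin 9 and 12.9 CPM in bin 10 of the Tom- library. In the Tom+ library it was at 0.44 CPM (6 UMIs), 2.88 CPM and 12.7 CPM. Outside the last bins it was close to the limit of detection. Tbx3 (chr5:119670669-119684724, plus strand), a T-box factor, reached farther and was already well above its portal level in the middle of the lobule. Its levels in bins 1, 5, 7, 9 and 10 were 4.36, 15.2, 52.1, 104 and 163 CPM in Tom- cells, and 5.09, 12.9, 45.9, 86.7 and 145 CPM in Tom+ cells.

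Glul and Rhbg handle ammonia. Glul (chr1:153899944-153909723, plus strand) encodes glutamine synthetase, the classical marker of the innermost pericentral hepatocytes, and Rhbg (chr3:88242874-88254709, minus strand) encodes an ammonium transporter of the Rhesus family. Glul was flat from bin 1 (6.63 CPM) to bin 4 (7.22 CPM) in Tom- cells, was at 52.5 CPM in bin 9, and was at 264 CPM in bin 10. In Tom+ cells it was at 11.4, 12.7, 54.9 and 326 CPM in these bins. The step from bin 9 to bin 10 was 5.03-fold in Tom- and 5.94-fold in Tom+ cells, the largest such step of the 10 genes in either library. Rhbg was at 1.75 CPM in bin 1, 14.7 CPM in bin 9 and 46.9 CPM in bin 10 of the Tom- library, and at 2.25, 11.7 and 50.7 CPM in the Tom+ library.

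Because a probe-based assay does not allow levels of different genes to be compared, the genes were ordered by the share of their summed bin levels found in bin 10, which would be 10% for an even gene. Glul came first in Tom- cells at 63.7% (62.9 to 64.4). Sp5 at 56.2% (52.8 to 59.5) and Rhbg at 54.8% (53.1 to 56.6) followed, and their intervals overlapped. Lgr5 stood at 48.6% (47.1 to 50.1). Axin2 at 45.6% (44.8 to 46.3) and Nkd1 at 43.6% (39.3 to 47.8) could not be placed apart, and the interval of Nkd1 also reached that of Lgr5. The share of Nkd1 depended on the cells kept: with no cluster left out it was 24.5% in Tom- and 27.8% in Tom+ cells. Tbx3 at 35.3%, Notum at 29.4%, Rnf43 at 27.8% and Znrf3 at 19.7% each had an interval clear of its neighbours. On this share the effector Glul, the transporter and Sp5 were the most restricted, and the ligases were the least. The share also counts the portal level, which for the ligases was close to that of the immune-rich cluster. A low share can therefore not be told apart from a high floor, and the order without such a floor was not tested.

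The order of the 10 genes was identical in Tom+ cells. There Glul at 58.1% (57.5 to 58.7) and Sp5 at 58.0% (55.0 to 61.0) had overlapping intervals, and Glul came first in only 7 of 16 alternative settings. Rhbg stood at 52.2%, Lgr5 at 47.7%, Axin2 at 46.1%, Nkd1 at 43.1%, Tbx3 at 35.7%, Notum at 30.0%, Rnf43 at 27.7% and Znrf3 at 20.9%. The share of Glul was lower in Tom+ cells by more than its counting intervals, but this rested on the cells kept. Without the cells of the highest doublet scores it was 66.1% in both libraries, while Sp5 was then at 57.2% in Tom- and 64.2% in Tom+ cells, Axin2 at 46.0% and 51.3%, and Lgr5 at 49.4% and 53.5%. With no cluster left out, Glul was at 52.2% in Tom- and 53.2% in Tom+ cells.

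**Figure D2:**
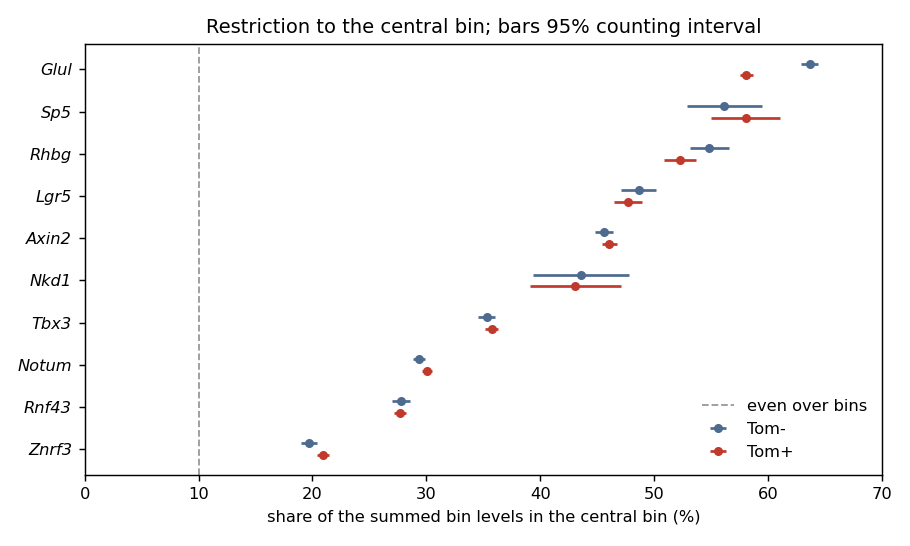
Share of the summed bin levels that fell in the central bin (x axis, %) for each gene (y axis) in Tom- (blue) and Tom+ (red) hepatocytes, with 95% counting intervals and a dashed line at the 10% of an even gene. The order runs from Glul (63.7% and 58.1%) to Znrf3 (19.7% and 20.9%) in both libraries.

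Without regard to position, the Wnt targets were higher in Tom+ hepatocytes. Glul was at 39.4 CPM in Tom- and 130 CPM in Tom+ cells, a log2 ratio of 1.72 (1.70 to 1.75). Rhbg was at 8.14 and 21.2 CPM (log2 1.38), and Sp5 at 2.18 and 5.15 CPM (log2 1.24). These are also the 3 genes with the largest share in the central bin. Lgr5 was at 10.7 and 23.0 CPM (log2 1.10), Axin2 at 43.0 and 84.4 CPM (log2 0.97), and Tbx3 at 45.1 and 77.0 CPM (log2 0.77). Rnf43 was at 36.2 and 60.7 CPM (log2 0.74), Notum at 72.0 and 115.7 CPM (log2 0.68), and Nkd1 at 1.37 and 2.19 CPM (log2 0.68). Znrf3, the least restricted gene, differed least, with 32.1 and 41.1 CPM (log2 0.36, 0.32 to 0.39). In all, 9 of the 10 genes were at least 1.5-fold higher in Tom+ cells and none was 1.5-fold lower, beside 5.22% and 2.81% of all genes tested. The median log2 ratio was 0.87 for the 10 genes and 0.04 for all genes. The ratio of Nkd1 depended most on the settings: it was under the limit with no cluster left out (0.26) and without the clusters at least 90% Tom+ (0.55), and with thinned cells it was 0.81.

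Tom+ cells were also more central, so the levels were compared again at matched position, as the mean of the 10 bin levels with every bin weighted equally. A difference that also moved the landmarks would be partly removed by this measure. On this measure none of the 10 genes was 1.5-fold higher or lower, beside 2.47% of all genes that were higher and 2.93% that were lower. The median log2 ratio of the 10 genes was -0.081, and that of all genes was -0.011. Glul stayed highest, with bin means of 41.5 CPM in Tom- and 56.1 CPM in Tom+ cells and a log2 ratio of 0.43 (0.41 to 0.46). Rhbg had means of 8.56 and 9.71 CPM (log2 0.18, 0.12 to 0.25), and Rnf43 of 36.7 and 38.4 CPM (log2 0.063, 0.029 to 0.096). Without the cells of the highest doublet scores, Glul was at 0.33, Rhbg at 0.045 and Rnf43 at 0.039, so the ratio of Rhbg depended on this setting. The cells left were clustered anew there, so the clusters kept may differ too. Without the clusters at least 90% Tom+, Rnf43 was at 0.002. This measure leans on the score: with one built from Cyp2e1 and Cyp2f2 alone, all 10 log2 ratios were above zero (0.015 to 0.94), and Glul (0.94) and Rhbg (0.65) passed 1.5-fold. With 5 bins instead of 10, Glul passed at 0.66 and Rhbg was at 0.37. With 20 bins Glul was at 0.33 and Rhbg at 0.11.

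The remaining 7 genes lay below zero at matched position, a direction that turned for each of them with the score from Cyp2e1 and Cyp2f2. It also turned with 5 bins for Lgr5 (0.079) and Sp5 (0.14), and for Sp5 with no cluster left out (0.019) and with thinned cells (0.038). Nkd1 had bin means of 1.41 CPM in Tom- and 1.13 CPM in Tom+ cells, a log2 ratio of -0.32 (-0.50 to -0.15). Tbx3 had means of 46.1 and 40.6 CPM (log2 -0.18), and Axin2 of 44.5 and 39.5 CPM (log2 -0.17). All 3 lay under the 1.5-fold limit. Znrf3 stood at a log2 ratio of -0.11, Notum at -0.096, Lgr5 at -0.065 and Sp5 at -0.062, and the interval of Sp5 (-0.19 to 0.063) included zero. Znrf3 was lower in Tom+ cells in 10 of 10 bins, with its lowest log2 ratio, -0.22, in bin 9. Lgr5 and Sp5 were instead higher in Tom+ cells in 7 of 10 bins and Axin2 in 6, Notum in 3, and Nkd1 and Tbx3 in 2. The mean of the bin levels is set mostly by the bins where a gene is high, so its sign need not be that of most bins.

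**Figure D3:**
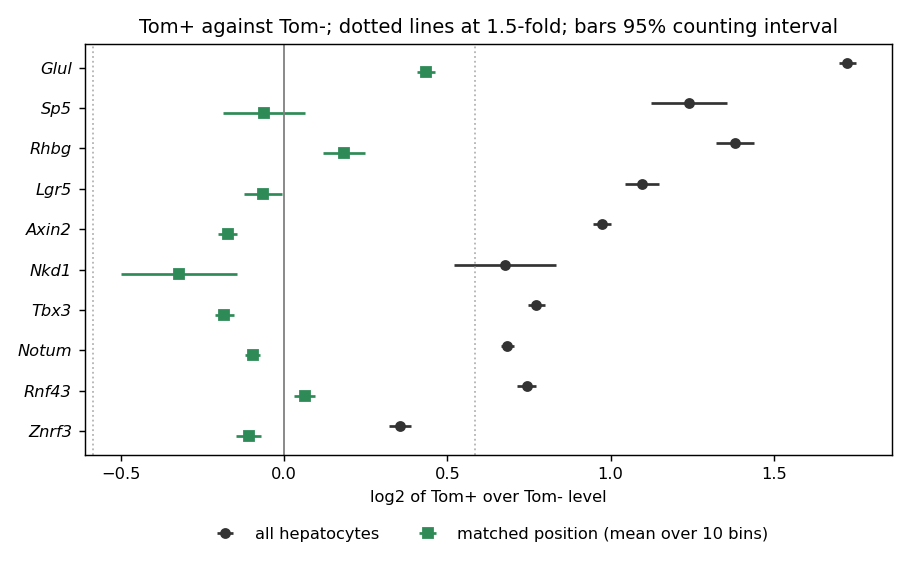
Log2 ratio of Tom+ over Tom- level (x axis) of each gene (y axis) over all hepatocytes (black circles) and at matched position (green squares), with 95% counting intervals and dotted lines at 1.5-fold. Over all hepatocytes 9 of 10 genes lie past the line on the right, and at matched position none does, with Glul at 0.43 the farthest to the right.

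The single bins show where the libraries parted. Glul was higher in Tom+ cells in every bin, by 0.73 to 1.08 on the log2 scale in bins 1 to 8, by 0.064 (-0.014 to 0.14) in bin 9 and by 0.30 (0.27 to 0.33) in bin 10. The ratio was therefore largest in the portal and middle bins, where the gene is low. Its level in bins 1 to 4 was 6.63 to 7.22 CPM in Tom- and 11.4 to 12.7 CPM in Tom+ cells. In these bins it was spread over cells with few Glul UMIs. Counting cells with at least 5 Glul UMIs among 10000 as Glul-high, no Tom- and no Tom+ cell of bins 1 to 4 qualified. In bin 1 that is 0 of 1059 Tom- cells, which allows a share of up to 0.283% (3 cells of the total), and 0 of 306 Tom+ cells, which allows up to 0.980%. Hepatocytes of the Tom+ library held more Glul UMIs in total (53358 against 15554), and the part of free RNA in the portal difference was not tested.

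For Lgr5, Sp5 and Rhbg the direction depended on the bin. Lgr5 was at 4.47 CPM in Tom- and 5.89 CPM in Tom+ cells of bin 6, but at 26.9 and 18.9 CPM in bin 9 (log2 -0.51). Sp5 was at 0.72 and 1.5 CPM in bin 6 and at 4.81 and 2.88 CPM in bin 9 (log2 -0.74). Rhbg was at 3.51 and 7.01 CPM in bin 6 and at 14.7 and 11.7 CPM in bin 9 (log2 -0.33). All 3 were higher in Tom+ cells in the middle of the lobule and lower next to the central bin, and Rhbg was higher again in bin 10 (log2 0.11, 0.035 to 0.19). The excess was not limited to the middle. In bin 2 the log2 ratio was 1.23 (0.55 to 1.91) for Lgr5 and 0.80 (0.23 to 1.36) for Rhbg. These portal levels are low, and the part of free RNA in them was not tested. Axin2 differed little in bin 6 (22.96 and 24.0 CPM) and was lower in bin 9 (107 and 78.1 CPM, log2 -0.45).

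Between 9.83% and 24.2% of the Tom+ cells of each bin belonged to 2 hepatocyte clusters that were at least 90% Tom+, against at most 1.32% of Tom- cells. Without these clusters the log2 ratios in bin 9 were -0.46 for Lgr5, -0.82 for Sp5, -0.26 for Rhbg and -0.53 for Axin2. That of Rhbg in bin 10 was 0.062 (-0.019 to 0.14), an interval that includes zero. The matched ratio of Glul was then 0.34, and its ratio in bin 10 was 0.17.

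The central bin itself is wide for genes this restricted, so it was cut into 5 parts that hold 211 or 212 Tom- cells each. Tom+ cells were again skewed, with 541, 566, 528, 655 and 1072 cells from the least to the most central part. In Tom- cells Glul was at 122, 159, 212, 347 and 514 CPM in these parts. In Tom+ cells it was at 97.2, 139, 190, 285 and 643 CPM. Glul was therefore lower in Tom+ cells in 4 of the 5 parts, with log2 ratios of -0.33, -0.19, -0.16 and -0.29, and higher only in the last, at 0.32 (0.27 to 0.38). The last part has no outer limit, and Tom+ cells may lie farther out within it.

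Axin2 and Tbx3 were lower in Tom+ cells in all 5 parts, with log2 ratios of -0.44 to -0.15 and of -0.33 to -0.13. Notum, Nkd1 and Lgr5 were lower in all 5 as well, though not beyond counting error in each part. The ratio of Nkd1 was farthest from zero in the second part, at -1.39 (-2.07 to -0.69), with 4.76 CPM in Tom- and 1.82 CPM in Tom+ cells. Rhbg was at 31.2 CPM in Tom- and 18.0 CPM in Tom+ cells in the first part (log2 -0.79) and at 72.4 and 84.8 CPM in the last (log2 0.23). Its profile inside the bin was thus steeper in Tom+ cells, as that of Glul was. Lgr5 was at 41.7 and 32.3 CPM in the first part and at 72.0 and 66.2 CPM in the last, where the interval of its log2 ratio (-0.26 to 0.022) included zero. Rnf43 and Znrf3 differed least, and the log2 ratios of Rnf43 ran from -0.23 in the first part to 0.088 in the last.

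**Figure D4:**
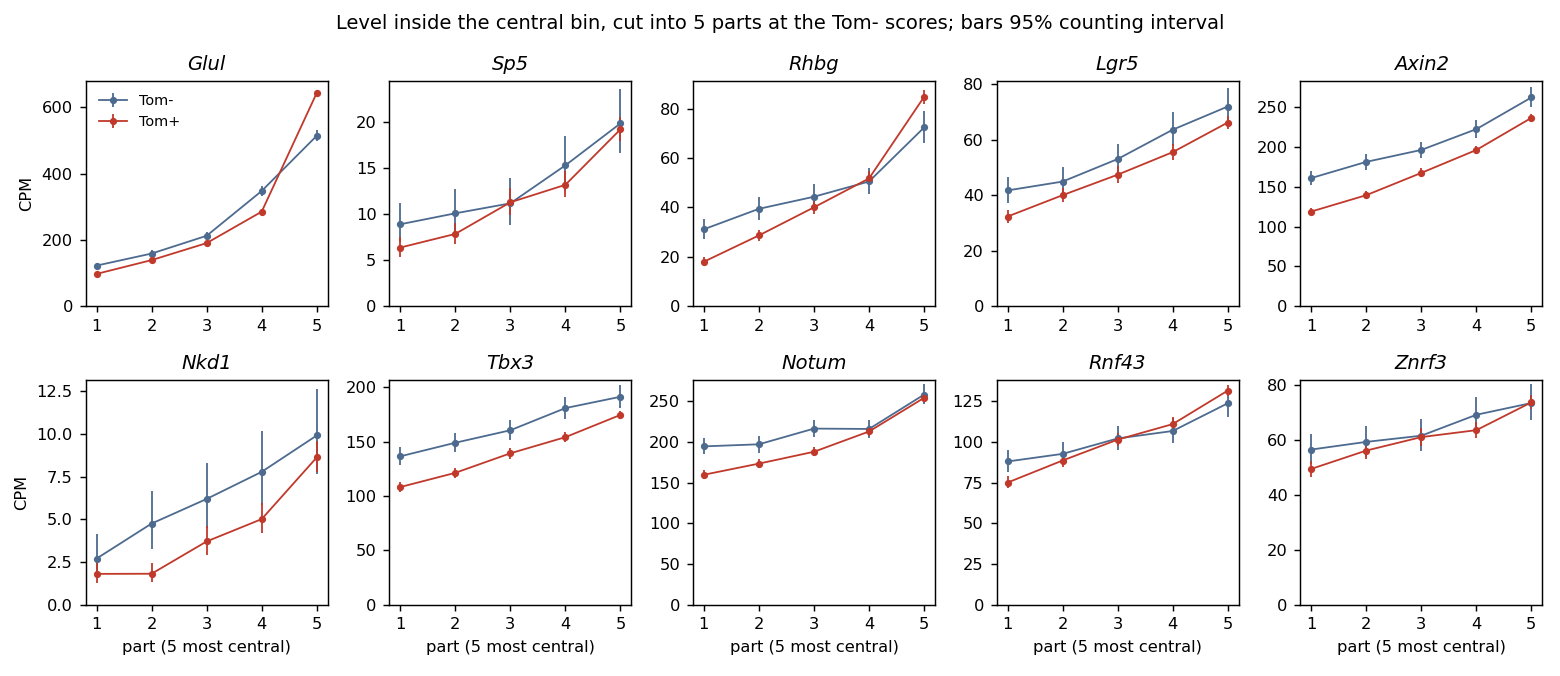
Level of each gene (CPM, linear axis from 0) in 5 parts of the central bin, from the least (1) to the most central (5), in Tom- (blue) and Tom+ (red) hepatocytes with 95% counting intervals. Glul and Rhbg are lower in Tom+ cells in the first part and higher in the last, while Axin2, Tbx3, Notum, Nkd1 and Lgr5 are lower in Tom+ cells in all 5.

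Co-expression was examined as the number of cells in which both genes of a pair were detected at 10000 UMIs, over the number expected if they were independent. Across all Tom- hepatocytes, 43 of 45 pairs had at least 10 expected cells, and all 43 were seen together more often than expected, with a median ratio of 1.91 (range 1.20 to 4.78). In Tom+ cells all 45 pairs were above 1 with a median of 1.47. Lgr5 and Sp5 shared 102 Tom- cells with 21.4 expected and 239 Tom+ cells with 99.9 expected. A shared position raises these ratios, so the expectation was also built within bins. The median then fell to 1.09 in Tom- cells (44 pairs) and 1.08 in Tom+ cells (45 pairs). The counting interval lay above 1 for 22 pairs in Tom- and 31 in Tom+ cells and below 1 for none.

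The ratios within bins differed from pair to pair. Sp5 with the widely detected Znrf3 was at 1.28 (1.06 to 1.53) in Tom- and 1.09 (0.96 to 1.23) in Tom+ cells. Lgr5 with Sp5 was at 1.46 (1.19 to 1.77) in Tom- and 1.32 (1.16 to 1.5) in Tom+ cells. Glul with Rhbg, the pair of ammonia handling, was at 1.27 (1.14 to 1.40) and 1.22 (1.15 to 1.29). Nkd1 with Sp5 was highest in Tom+ cells at 1.48 (1.04 to 2.06), from 36 cells. Notum with Znrf3, a pair of widely detected genes, was at 1.01 and 1.04. A bin still spans a range of positions, so these ratios are a description and cannot be told apart from position within a bin. Their size is also capped by how widely a gene is detected. Of 228 Tom- cells with Sp5, 173 were expected to hold Notum within bins, and 69.9 to hold Lgr5. Pairs and libraries can therefore not be ranked by the ratio.

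**Figure D5:**
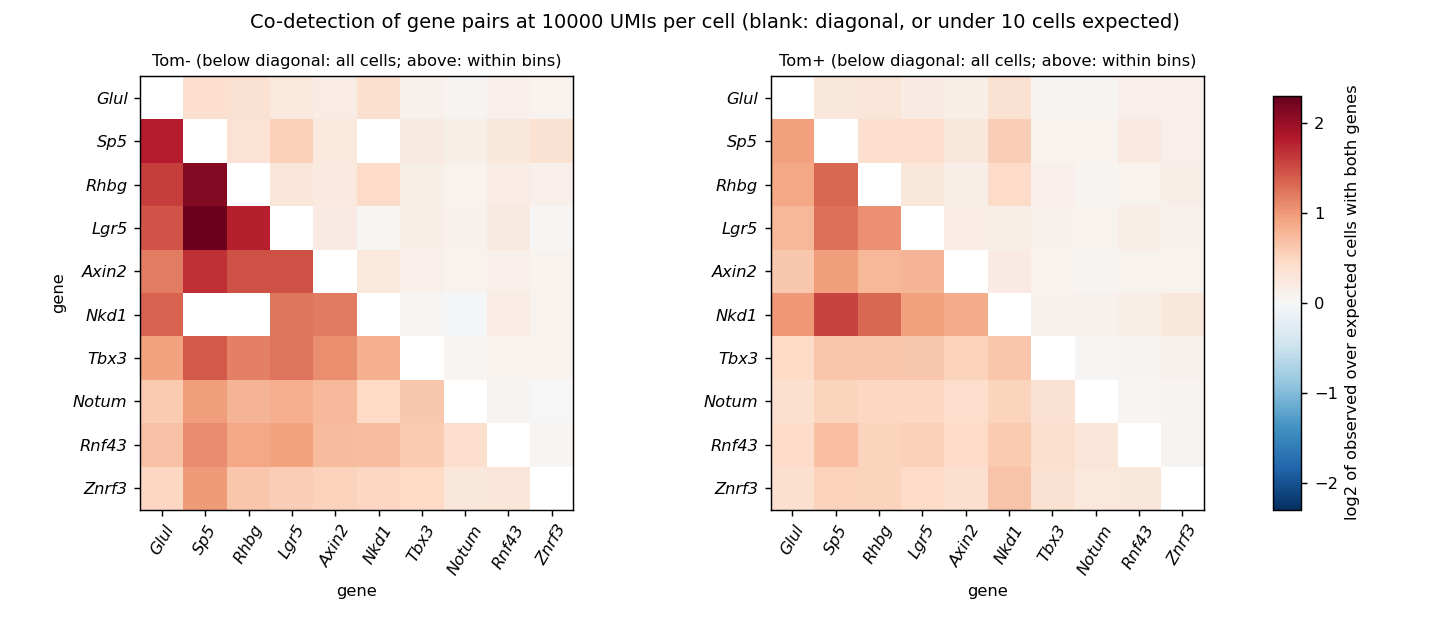
Log2 of the observed over expected number of cells with both genes for each pair, in Tom- (left) and Tom+ (right) hepatocytes, over all cells below the diagonal and within bins above it. Colours are strongest below the diagonal among Glul, Sp5, Rhbg, Lgr5, Axin2 and Nkd1, and fade above it, where the medians are 1.09 and 1.08 before the logarithm.

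Inside the central bin Glul divided the cells. Glul-high cells made up 23.3% (20.8 to 26.0) of Tom- and 25.5% (24.0 to 27.0) of Tom+ cells there, and carried 70.9% and 75.7% of the Glul UMIs of the bin. Another 32.7% of Tom- and 30.3% of Tom+ cells of this bin had no Glul UMI at this depth. In bin 9 the Glul-high share was 2.27% and 1.38%. Cells under the limit also differed between these bins, from 46.3 to 119.7 CPM in Tom- and from 51.0 to 117.7 CPM in Tom+ cells. The Glul-high share of bin 10 differed between libraries by less than the counting intervals.

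Each of the other 9 Wnt targets was higher in Glul-high cells than in the rest of the central bin. Glul and the other 9 were also higher in the most central part of this bin than in its first part, so the split by Glul cannot be told apart from position within the bin. Nkd1 differed most, with 13.8 CPM in Glul-high and 4.31 CPM in other Tom- cells (log2 1.67, 0.95 to 2.40) and 13.7 and 3.75 CPM in Tom+ cells (log2 1.87). Rhbg was at 80.2 and 35.8 CPM in Tom- cells (log2 1.16) and at 93.5 and 34.7 CPM in Tom+ cells (log2 1.43). Sp5 was at 22.7 and 11.6 CPM in Tom- cells and at 23.9 and 10.9 CPM in Tom+ cells. Notum differed least, with 264 and 203 CPM in Tom- cells (log2 0.38) and 262 and 191 CPM in Tom+ cells (log2 0.45). Axin2 was at 289 CPM in Glul-high Tom- cells and at 272 CPM in Glul-high Tom+ cells.

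Counted the other way, Glul was highest in cells with many other Wnt targets. In the central bin of the Tom- library it was at 40.0 CPM in the 5 cells with no other target, 103 CPM in the 29 cells with 1, 98.7 CPM with 2, 174 CPM with 3 and 375 CPM with at least 4. In Tom+ cells the same classes were at 59.1, 50.0, 98.1, 145 and 458 CPM. Among the classes with fewest targets there was thus no steady order. At least 4 others were seen in 74.3% of Tom- and 71.3% of Tom+ cells of this bin, so the classes with fewer are small.

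All 10 genes were also detected in the clusters richest in the immune marker Ptprc (immune-rich) and in the endothelial marker Pecam1 (endothelial-rich). The immune-rich cluster was mixed, with Ptprc at 174 CPM, Dcn at 209 CPM and Pecam1 at 77.8 CPM. The cluster richest in Dcn was not examined. In the immune-rich cluster, Glul was at 64.4 CPM in Tom- and 70.4 CPM in Tom+ cells, and Nkd1 at 9.36 and 12.8 CPM. In the endothelial-rich cluster, Glul was at 34.1 and 66.2 CPM, and Nkd1 at 15.1 and 23.8 CPM. These Nkd1 levels are above those in the central hepatocyte bin (6.15 and 4.86 CPM). Glul was above the mean of the hepatocytes of its library only in the immune-rich cluster of the Tom- library. The remaining 8 genes were lower in both clusters than the mean of the hepatocytes of the same library, as Notum was with 26.0 and 27.5 CPM in the Tom- library. In the Tom- library both clusters were nevertheless above bin 1 for Glul, Nkd1, Notum, Axin2, Tbx3, Lgr5, Rhbg and Sp5. The intervals overlapped for Notum and Sp5, and for Rhbg in the endothelial-rich cluster. In bin 1 Notum was at 22.2 CPM, Axin2 at 3.08 CPM and Tbx3 at 4.36 CPM. Axin2 was at 12.4 and 11.1 CPM in the clusters, and Tbx3 at 12.6 and 12.3 CPM. Rnf43 and Znrf3 in bin 1 were close to the immune-rich cluster, as given above. Whether these clusters express the genes themselves was not tested, so they are no measure of a background in bin 1. The part of free RNA in the portal levels was not tested either. At 10000 UMIs a Glul UMI was seen in 18.4% of Tom- and 39.1% of Tom+ hepatocytes, and in 38.4% and 42.9% of the deep cells of the immune-rich cluster, whose median UMI counts were 8376 and 7646. The share over all hepatocytes is therefore no measure of expression by itself. Those clusters carried much hepatocyte RNA too, with Alb at 103566 CPM or more.

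Markers of other cells within the hepatocyte bins were compared with these profiles. The 10 endothelial markers summed to between 65.8 and 77.4 CPM over the bins of the Tom- library and were lowest in bin 10. The 11 immune markers summed to 141 CPM in bin 1, 260 CPM in bin 9 and 224 CPM in bin 10. The 9 stellate markers were at 37.2 CPM in bin 1 and 75.0 CPM in bin 10. In Tom+ cells the endothelial sum was between 50.9 and 67.0 CPM and the stellate sum between 26.7 and 74.1 CPM. No marker of these lists was at 0, and their part in the levels of the Wnt targets was not tested.

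Other genes of the pathway were examined along the lobule as well. Of 68 listed receptors, cytoplasmic and nuclear components, inhibitors and further targets, 47 could be compared between bins 10 and 1 in Tom- cells. Of these 11 were at least 2-fold higher at the central end and 5 were lower, beside 6.75% and 3.53% of all genes. In Tom+ cells 11 of 49 were higher and 4 lower, beside 11.4% and 3.67%. The 6 further targets were unlike each other. Tnfrsf19, a receptor of the TNF family, was at 56.2 CPM in bin 10 of the Tom- library with a log2 ratio of 4.9, and the secreted factor Lect2 was at 254 CPM with 4.49. The cell cycle gene Ccnd1 (1.67) and Myc (1.78) were also past 2-fold, Bambi was at 0.019, and Sox9 was lower at the central end (-2.18). Ctnnb1, which encodes β-catenin, was nearly flat, at a log2 ratio of 0.11 in Tom- and 0.20 in Tom+ cells. Tcf7 was higher at the central end (log2 3.73 and 3.93), and its relative Tcf7l1 was lower (log2 -2.25 and -1.52).

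At matched position 56 genes of the list could be compared, with a median log2 ratio of 0.004. One passed 1.5-fold in each direction, beside 2.47% of all genes that were higher and 2.93% that were lower, so the list did not exceed the background. Both were named after their values were seen and rest on few UMIs: Pygo1 at 0.86 (46 Tom- and 60 Tom+ UMIs) and Lef1 at -0.80 (25 and 25 UMIs, interval -1.69 to 0.10). Among genes at 5 CPM or more, the largest log2 ratios were those of the target Myc at 0.32, the Dickkopf receptor Kremen1 at 0.24, the receptor Fzd7 at 0.23 and the co-repressor Tle1 at 0.21. The co-repressors Tle2 and Tle4 lay at -0.26 and -0.20. None of these reached the 1.5-fold limit.

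The profile of the 10 genes, averaged after each had been scaled, was compared with 8021 other genes over the 10 bins of the Tom- library. The most similar shapes were those of Nxpe2 (Pearson's r 0.999, Tom+ r 0.984), Pdzk1 (0.999), Gstm6 (0.998), Vcp (0.998), Eci2 (0.998) and Blvrb (0.997). Likeness is of shape and not of size: Nxpe2 was at 0.25 CPM in bin 1 and 11.4 CPM in bin 10, while Vcp was at 433 and 667 CPM. The sharper step of Glul was matched best by Slc4a4 (0.995), Tango2 (0.995), Csrp2 (0.994), Aifm1 (0.994), Pdgfa (0.993) and Trim8 (0.993). All points of a profile come from 1 library and share its cells and its position score, and no p is given. Nxpe2 was the only one of these 12 genes with a matched log2 ratio of Tom+ over Tom- past the size of that of Glul, at 0.54 (0.43 to 0.66), from 0.25 and 0.80 CPM in bin 1 and 11.4 and 14.2 CPM in bin 10.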

How the data were processed

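The authors hybridised pairs of probes to RNA of fixed cells (10x Genomics Flex) and counted UMIs with Cell Ranger 7.2.0 on mm10, per the labels. The deposited matrices hold raw UMI counts, with 681279005 in 23220 Tom- and 715333889 in 16339 Tom+ barcodes, and 3 of the 19073 features are custom probes. Gene positions are those of the GENCODE annotation of the same build.

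Cells were kept as in the study's methods: at most 0.05 mitochondrial, 2000 to 10000 genes and at most 100000 UMIs, which left 20159 Tom- and 13378 Tom+ cells. Both libraries were clustered together (Python 3.11.15, scanpy 1.11.5, 2000 variable genes, 30 components, 20 neighbours, resolution 0.8), without the 10 Wnt targets and the custom probes. A cluster was left out if its median number of genes was below 0.75 of the overall median, or if it held Ptprc, Dcn or Pecam1 at or above 2.5 times the level of the middle cluster. These limits were applied once, to the clusters of all cells: when the hepatocytes were clustered again, 2 small clusters past a limit (14 Tom- and 1 Tom+ cells, and 46 and 43 cells) were kept. Scrublet marked 1 and 0 cells, so the caller did not work and doublets were not removed.

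The position score is the mean scaled log level of the central minus that of the portal landmarks in cells thinned to 10000 UMIs, with limits set on Tom- cells. The landmark Slc22a3 was hardly detected (0.25 CPM in the central Tom- bin). Landmarks can differ between libraries themselves: at matched position Oat had a log2 ratio of 0.63. Levels are sums of counts as CPM with exact Poisson intervals, ratios have conditional or, at matched position, delta-method intervals, and for shares of cells exact Clopper-Pearson intervals are given (for a share of 0, the limit of 3 cells instead). Genes needed 20 UMIs to be compared. The calculation at matched position was tested on counts simulated from the Tom- bin levels with known folds. Every bin was known without error there, so the simulation does not cover misplaced cells or landmarks that differ between libraries. The genes named outside the set are those of the pathway list at 5 CPM with the 6 largest matched ratios by size, and the 6 profiles of log2(CPM + 0.5) most like the mean of the 10 genes or like Glul, among genes with at least 10 CPM in their highest Tom- bin. Some pathway and marker genes were added to describe a list. The 10 genes, the lists and the limits were chosen with earlier results of these data known. Alternatives changed the bins, the score, the filters, the clusters kept and the scaling.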

Additional observations from a re-analysis of the deposited data

How the results depend on the processing

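No paired analysis was possible because there is only 1 library on either side. Across 17 alternatives, the counts of genes at least 2-fold higher in the central bin and at least 1.5-fold higher in Tom+ hepatocytes stayed within 1.5 times their value. The count of genes 1.5-fold higher at matched position was 0, and became 1 with 5 bins and 2 with the score from Cyp2e1 and Cyp2f2. Without Oat and Slc1a2 in the score the count stayed at 0, and the matched log2 ratio of Glul was 0.51. The cause of these shifts was not tested. The ratios over all hepatocytes could be touched by 10 of the alternatives, and 81 stayed inside their counting interval while 19 moved. At matched position 127 stayed and 43 moved, and of the shares in the central bin 216 stayed and 104 moved. No ratio past 1.5-fold changed sign. Scaling by the median of ratios shifted the central over portal log2 ratios by 0.16 in Tom- and 0.22 in Tom+ cells. The order of the 10 genes by central share was the same in 13 of 16 settings in Tom- and 6 of 16 in Tom+ cells, where Glul and Sp5 changed places most often, and the 4 least restricted genes kept their order in 14 and 15. Leaving out barcodes found in both libraries, an alternative added after the data were seen, gave a matched log2 ratio of 0.43 for Glul. With 1 library each, differences between animals and between library preparations cannot be told apart from the sort.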
